A study of Homo sapiens with 16 samples.

Results

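The comparison set 2 libraries with short hairpin RNAs against NFIB beside 6 control libraries in HCC70, a human cell line from a triple-negative breast carcinoma of basal-like type. These 8 of the 16 libraries of the series were taken by their labels: NFIB 2 and NFIB 1, each with its own hairpin, and shRFP, shLACZ and shLUC, each with a pair of libraries numbered 1 and 2. Per the labels each of the 8 libraries has a hairpin identifier of its own, so the spread among controls includes differences between control hairpins. The control names refer to genes that human cells lack, and the controls were taken as non-targeting from these names. Every library is of infected HCC70 cells, so the controls share the line, the culture and the infection, and no uninfected cells were compared. Of 11282 genes in the deposited table, 10444 were tested, those reaching 5 in 2 or more of the 8 libraries. Values are the deposited normalized signal. The labels do not say whether libraries came from separate cultures, so p-values measure the spread between these samples, which may be technical. The series is about regulators of cell state in basal-like tumours and of symmetric against asymmetric division.

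NFIB is a member of the nuclear factor I family, DNA-binding proteins that bind a palindrome as dimers and can activate or repress transcription. The family has NFIA, NFIB, NFIC and NFIX, and NFIB is best known from lung, brain and epithelial stem cell development. A hairpin RNA expressed from a lentiviral vector is cut into a small interfering RNA that lowers the transcript it matches, and it may also lower transcripts that it matches in part.

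Total reads recovered from the deposited values were 1958659 in NFIB 2 and 1162099 in NFIB 1, against 580015 to 1264671 in the controls, so NFIB 2 was the deepest of the 8. The chi-square per degree of freedom over genes, a ratio to the counting variance, was 9.91 between the NFIB libraries. Between paired controls it was 1.97 (shRFP), 2.62 (shLACZ) and 3.39 (shLUC). The ratio grows with depth at the same relative spread, so pairs of unlike depth are not compared like for like. The basal markers KRT5, KRT14, KRT17, KRT6A, CDH3, EGFR and SFN, and the epithelial genes EPCAM and CDH1, had reads in all 8 libraries. ESR1 was at 5.91 and 1.37 in NFIB 2 and NFIB 1, against 3.40 to 10.7 (median 4.54) in the controls. Of 13 fibroblast and endothelial markers 5 were in the table, and their summed level was 51.0 in NFIB 2 and 49.2 in NFIB 1, against 13.2 to 31.5 in the controls. COL1A1, a fibroblast collagen, was at 32.5 and 24.6, against 6.80 to 25.8 (median 9.01), and ENG, an endothelial surface protein, at 10.97 and 10.9, against 4.22 to 8.84 (median 6.66), so that both NFIB libraries were above all controls for ENG and NFIB 2 for COL1A1. COL1A2 was at 3.80 and 8.88, against 0.00 to 4.22 (median 1.45), DCN at 3.37 and 2.05, against 0.00 to 4.22 (median 0.535), and PDGFRA at 0.422 and 2.73, against 0.00 to 5.63 (median 1.61). The part of RNA from such cells in the results was not tested. Of 12 leukocyte markers 2 were in the table, and their sum, 30.8 in NFIB 2 and 17.1 in NFIB 1, was not above the controls (21.6 to 34.3).

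The NFIB transcript lay under every control in both NFIB libraries, just under them with hairpin 1 and far under them with hairpin 2. NFIB (ENSG00000147862) was at 42.2 in NFIB 2 and 238 in NFIB 1, against 309 to 366 (median 330.2) in the 6 controls. These are 12.6% and 71.1% of the control mean of 335 ± 22.7 (SD, n = 6), and the groups did not overlap. The log2 fold change, here and below on the log2(value + 1) scale, was -2.96 in NFIB 2 (SE 0.20). In NFIB 1 it was -0.49 (SE 0.20) and did not pass. For both libraries together it was -1.72 (SE 0.35, limma adjusted p 0.0945), and the exact 2-sided permutation p over 28 arrangements was 0.0714, the smallest that 2 against 6 libraries can give. The loss was known to be deeper in NFIB 2 when the hairpins were separated. The loss in NFIB 2 and the difference between hairpins are therefore descriptions and carry no test. In bulk RNA, fewer cells with the transcript and less of it per cell cannot be told apart.

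The 3 other family members did not pass in any comparison. NFIA was at 250.2 in NFIB 2 and 174 in NFIB 1, against 186 to 303 (median 244) in the controls. NFIC was at 278 and 238, against 258 to 327 (median 286). NFIX was at 57.8 and 70.4, against 64.0 to 133 (median 111). In NFIB 1, NFIA and NFIC lay below the control range, and in NFIB 2, NFIX did. Both NFIA and NFIC were inside it in NFIB 2. The transcripts of RBPJ, FOXA1 and KLF5, the factors targeted elsewhere in the series, did not pass either: log2 fold changes for both NFIB libraries were -0.07, 0.08 and 0.16.

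**Figure D1:**
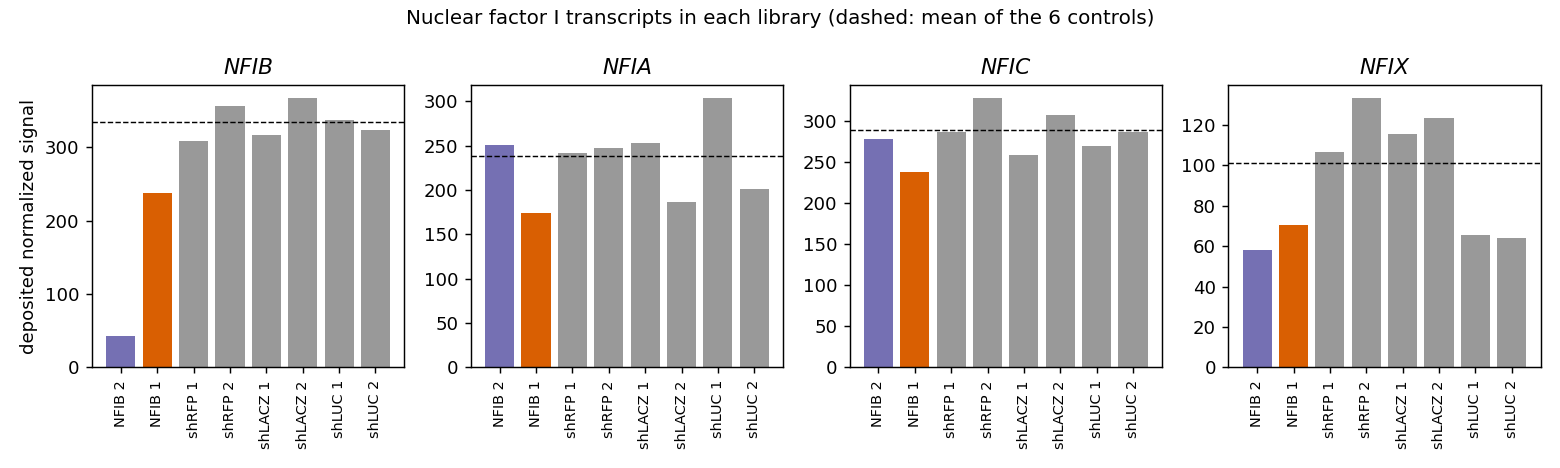
Bars give the deposited normalized signal (vertical axis, from 0) of NFIB, NFIA, NFIC and NFIX in NFIB 2, NFIB 1 and each of the 6 control libraries, and the dashed line is the control mean. NFIB stands at 42.2 in NFIB 2 and 238 in NFIB 1, and the other family members overlap or lie close to the controls.

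With both hairpins together, 5 of 10444 genes passed (0.0479%), 2 higher (0.0191%) and 3 lower (0.0287%). The higher genes were SLC1A5 and HSPA1B. The lower genes were CASP14, PABPC1 and PABPC3. An unadjusted limma p under 0.05 was reached by 838 genes. Both NFIB libraries lay above all 6 controls for 510 genes (4.88%) and below all 6 for 477 (4.57%).

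SLC1A5 (ENSG00000105281), a glutamine transporter of the plasma membrane, was at 494 in NFIB 2 and 642 in NFIB 1, against 259.9 to 319 (median 302) in the controls. Its log2 fold change was 0.94 (SE 0.16, limma adjusted p 0.0237), and both NFIB libraries were above every control. HSPA1B, a stress-inducible chaperone of the HSP70 family, was at 119 and 93.6, against 37.4 to 52.9 (median 49.8), again without overlap (log2 1.13, SE 0.21, limma adjusted p 0.0407). Its near-identical copy HSPA1A, at 295 and 408 against 297 to 399 (median 351), did not pass (log2 -0.01, limma adjusted p 0.994), and reads may be split between the copies. HSPA1B was the single one of 23 tested members of the heat shock list to pass, and that list had a median log2 fold change of -0.03, against 0.03 over all genes.

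CASP14, a caspase of terminal epidermal differentiation, was at 51.9 in NFIB 2 and 53.3 in NFIB 1, against 108 to 205 (median 151) in the controls. Both hairpins gave nearly the same value, which was under that of every control (log2 -1.48, SE 0.22, limma adjusted p 0.0112). PABPC1, the main cytoplasmic protein on poly(A) tails, was at 326 and 274, against 509.7 to 768 (median 676) (log2 -1.12, SE 0.17, limma adjusted p 0.0115). PABPC3, an intronless copy of it, was at 67.1 and 43.7, against 95.7 to 141 (median 131) (log2 -1.19, SE 0.20, limma adjusted p 0.0237). For neither gene did the groups overlap, but the copies are so alike that reads of one may be counted in the other. In shLUC 2, the control nearest to NFIB 1 in depth, PABPC1 was at 621, while NFIB 2 was deeper than every control. The part of depth in these values was not tested.

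None of these 5 genes differed between the hairpins by the test of NFIB 2 minus NFIB 1, and the 95% intervals of the log2 difference show what could have been missed. They were -0.91 to 0.16 for SLC1A5, -0.37 to 1.07 for HSPA1B and -0.80 to 0.72 for CASP14. They were -0.34 to 0.83 for PABPC1 and -0.06 to 1.27 for PABPC3. The next genes by p did not pass. S100P, a small calcium-binding protein, was at 588 and 826, against 243 to 441 (median 342) (log2 1.04, limma adjusted p 0.0715). BAG2, a co-chaperone of HSP70, was at 10.97 and 23.9, against 35.2 to 50.3 (median 45.5) (log2 -1.36, limma adjusted p 0.0715). GPT2, a mitochondrial alanine aminotransferase, and GPX4, which reduces lipid peroxides, had log2 fold changes of 1.06 and 0.76 and a limma adjusted p of 0.201 each. For each of these 4 genes both NFIB libraries were outside the control range.

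**Figure D2:**
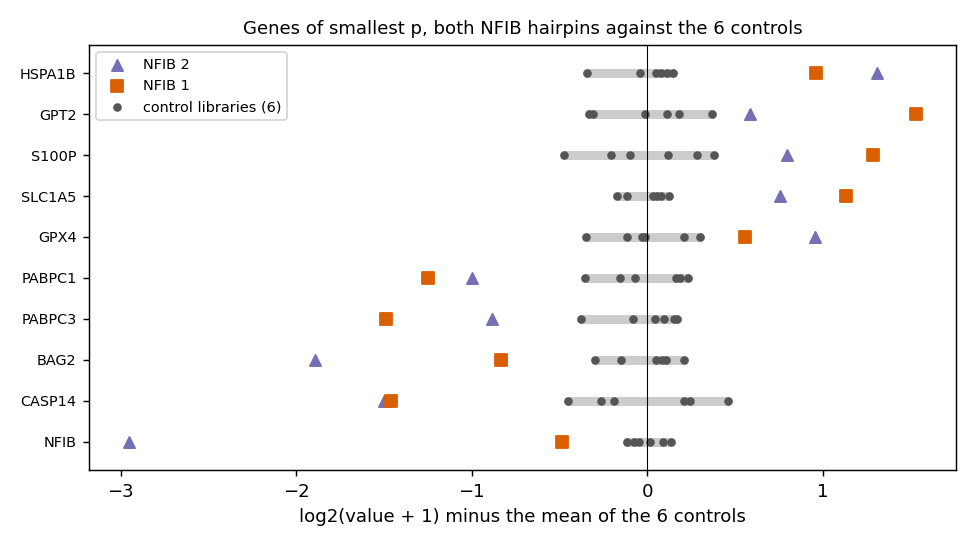
Points give log2(value + 1) minus the mean of the 6 controls (horizontal axis) for the 5 genes of smallest p in each direction with both hairpins: triangles NFIB 2, squares NFIB 1, dots the controls with their range in grey. Both NFIB libraries lie outside the controls for every gene, near each other for CASP14 (log2 -1.50 and -1.46) and far apart for NFIB (-2.96 and -0.49).

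The pair's calls depended on which libraries were in the fit. Without shRFP 1, 0 genes passed over all genes (limma adjusted p 0.0587 to 0.112 for these 5 genes, and up to 0.549 over all their alternatives), while 6 passed with edgeR and 31 with DESeq2 on all 8 libraries. The count was 1 without shRFP 2, 2 without shLACZ 2 and 3 without shLUC 1, against 27 without NFIB 1 and 114 without NFIB 2, where a lone NFIB library is assumed to vary like the controls. Without shLACZ 1 the count was 5, as it was without shLUC 2, and in each 4 were shared with the full set. Among controls left out singly, shRFP 1 alone took away the CASP14 call. With the 2 libraries labelled plko, which the choice of controls left out, added to the 6, 0 genes passed.

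Each hairpin was then set against the controls alone. NFIB 2 had 24 genes past the threshold (0.23%), 9 higher and 15 lower, and NFIB 1 had 114 (1.09%), 27 higher and 87 lower. Each of these tests sets 1 library against 6 and assumes that it varies like the controls, and both share the same controls. Among the 15 is NFIB itself, whose deeper loss in NFIB 2 was known beforehand. The batch in which each library was barcoded is not given, so hairpin and batch cannot be told apart here or below. The test of NFIB 2 minus NFIB 1 sets 1 library against 1, with the spread taken from the 6 controls alone, and it assumes that both NFIB libraries vary like them. By it 96 genes (0.919%) passed, 68 higher and 28 lower in NFIB 2, against 0 without a mean-variance trend and 1 with all 16 libraries in the fit, so the counts between hairpins compare these 2 libraries. An unadjusted limma p under 0.05 was reached by 703 genes in NFIB 2, 1250 in NFIB 1 and 1008 in the difference. Above the range of all 6 controls were 1699 genes (16.3%) in NFIB 2 and 2160 (20.7%) in NFIB 1, and below it 1498 (14.3%) and 1884 (18.04%).

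These counts also depended on the controls. For NFIB 2 the 24 became 10 without shRFP 1, 10 without shRFP 2, 14 without shLACZ 2, 40 without shLUC 1 and 69 without shLACZ 1. For NFIB 1 the 114 became 58 without shRFP 1 and 69 without shRFP 2. For the difference, the 96 became 52 without shRFP 2. With plko added to the controls 1 gene, NFIB itself, passed in NFIB 2 and 0 in NFIB 1.

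**Figure D3:**
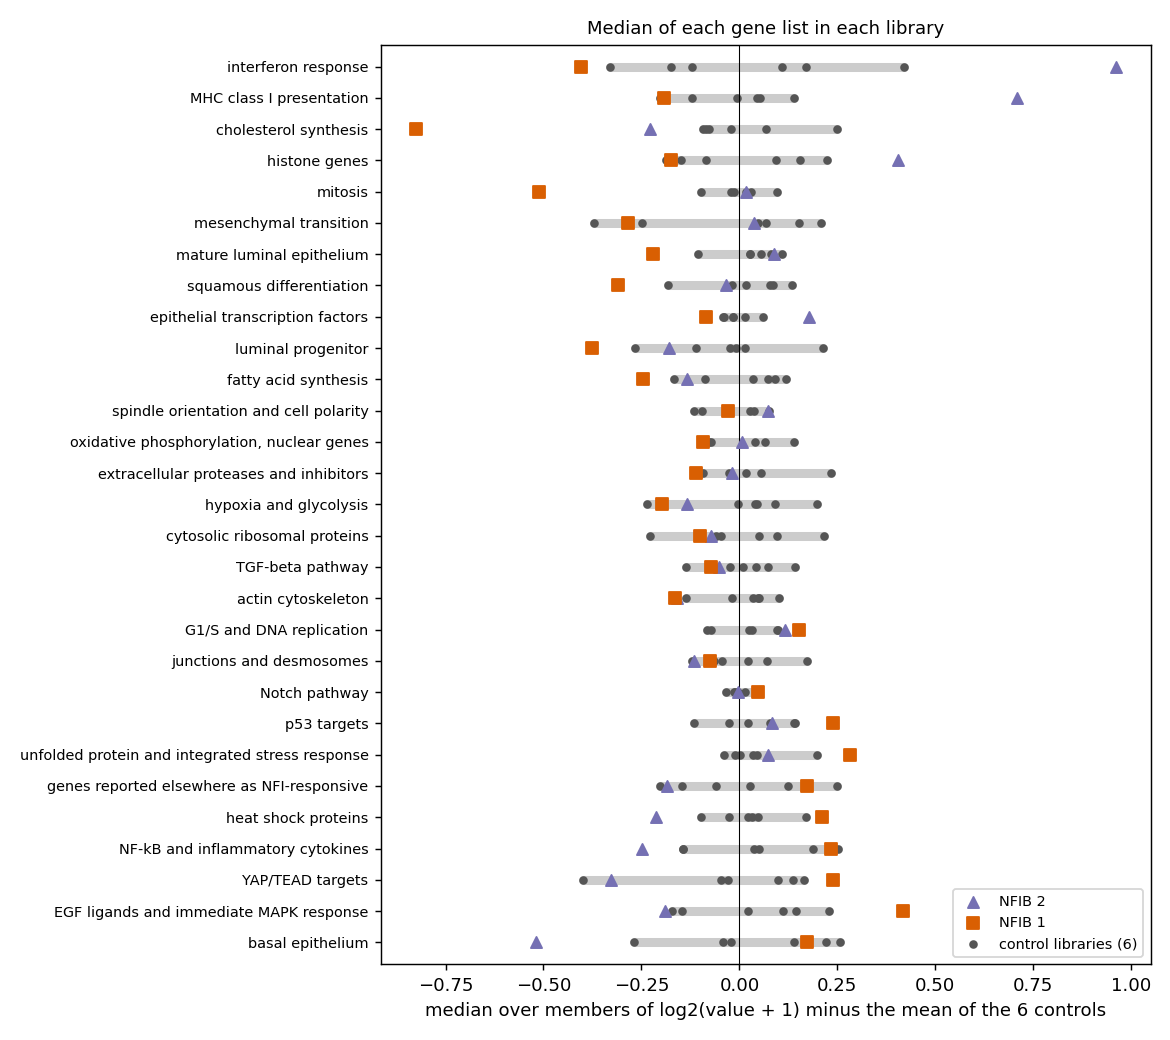
Each point is the median, over the tested members of a gene list, of log2(value + 1) minus the mean of the 6 controls (horizontal axis) in 1 library, ordered by NFIB 2 minus NFIB 1: triangles NFIB 2, squares NFIB 1, dots the 6 controls with their range in grey. The interferon response list lies at 0.96 in NFIB 2 and -0.40 in NFIB 1, and the basal epithelium list at -0.52 and 0.17.

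A group of interferon-stimulated genes was higher in NFIB 2 than in the controls and than in NFIB 1. Interferons signal through receptor-bound JAK kinases to transcription factors that bind a short element in the promoters of antiviral genes, and double-stranded RNA in the cytosol is a known inducer of the same genes. Of 34 tested members of the list 8 were higher and 0 lower in NFIB 2, where 0.0862% of all genes were higher. In NFIB 1, 0 were higher and 3 lower, where 0.833% of all genes were lower. The median log2 fold change of the list was 0.96 in NFIB 2 and -0.40 in NFIB 1, against 0.03 and 0.04 over all genes, and the list median of single controls ran from -0.33 (shLUC 2) to 0.42 (shLACZ 1). In the test of NFIB 2 minus NFIB 1, 14 members passed, all higher in NFIB 2, where 0.651% of all genes were (list median 1.43). NFIB 2 was above all controls for 26 members, where 16.3% of all genes were, and NFIB 1 below all controls for 13, where 18.04% of all genes were.

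Promoters are shown for IFIT1, ISG15, IFIT3 and IFI27, chosen from 17 list members with a match to the interferon-stimulated response element. Of these, ISG15 alone passed as higher in NFIB 2 against the controls. The element was searched on either strand as GAAA and GAAA with any 2 bases between them. The search covered the 250 bases before the RefSeq gene start (GRCh38.p14, gene strand, 5′ to 3′). Capitals mark every match, which overlap in ISG15. IFIT1 is chr10:89392488-89392547 (+), ISG15 is chr1:1013362-1013421 (+), IFIT3 is chr10:89327833-89327892 (+) and IFI27 is chr14:94110609-94110668 (+).
IFIT1: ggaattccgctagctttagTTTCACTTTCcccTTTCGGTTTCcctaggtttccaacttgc
ISG15: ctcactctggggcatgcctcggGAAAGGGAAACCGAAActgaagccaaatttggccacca
IFIT3: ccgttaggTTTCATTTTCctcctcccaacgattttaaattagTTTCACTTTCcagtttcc
IFI27: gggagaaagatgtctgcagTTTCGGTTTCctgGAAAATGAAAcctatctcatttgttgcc
Each of the 4 stretches holds 2 matches. A match was found in 195 of the 8633 tested genes with a promoter sequence (2.26%) and in 17 of 28 list members with one (60.7%). Among genes that were higher in NFIB 2 it was found in 3 of 8, namely IFI44L, IFI6 and ISG15. Among those that were higher in NFIB 2 than in NFIB 1 it was found in 11 of 56. Lower genes also held it: IFIT1, IFIT3 and TNFSF10 in NFIB 1 (4.41% of those with a promoter sequence). In NFIB 2 the lower gene NFIB held it (8.33%), as it did in NFIB 2 minus NFIB 1 (5%). A match is a description of the sequence and was not tested as a binding site.

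MX1, a GTPase that blocks viruses, was at 371 in NFIB 2 and 53.3 in NFIB 1, against 33.3 to 115 (median 48.0) in the controls (log2 2.79 in NFIB 2, limma adjusted p 0.00152). IFI6, a small mitochondrial and endoplasmic reticulum protein, was at 1747 and 259, against 142 to 524 (median 235) (log2 2.79 in NFIB 2, limma adjusted p 0.00258). ISG15, a ubiquitin-like modifier, was at 204 and 38.3, against 37.4 to 80.3 (median 45.1) (log2 2.03 in NFIB 2, limma adjusted p 0.00376). In all 3 genes NFIB 2 stood above every control and NFIB 1 lay within their range. OAS1 and OAS2, enzymes that make the oligoadenylates that activate RNase L, were at 193 and 70.4 in NFIB 2 and 43.1 and 6.15 in NFIB 1. Their controls were at 40.8 to 88.7 (median 67.4) and 3.59 to 14.5 (median 9.92). The log2 fold changes in NFIB 2 were 1.56 for OAS1 (limma adjusted p 0.0365) and 2.91 for OAS2 (limma adjusted p 0.0244). IFI44L (log2 2.73), UBE2L6, the conjugating enzyme for ISG15 (log2 1.29), and EIF2AK2, the kinase PKR that senses double-stranded RNA (log2 1.23), also rose in NFIB 2, each at a limma adjusted p of 0.0466.

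The IFIT genes, whose products bind foreign RNA, fell in NFIB 1. IFIT1 was at 99.6 in NFIB 2 and 6.15 in NFIB 1, against 20.4 to 59.1 (median 35.8) in the controls. The level in NFIB 1 was under every control (log2 -2.32, limma adjusted p 0.00554), and that in NFIB 2 above every control but short of the threshold (log2 1.49, limma adjusted p 0.171). IFIT3 was at 100 and 16.4, against 43.3 to 76.0 (median 57.9) (log2 -1.75 in NFIB 1, limma adjusted p 0.00538). IFIT2 was at 43.0 and 11.6, against 22.5 to 50.3 (median 35.6) (log2 -1.45 in NFIB 1, limma adjusted p 0.0497). The IFIT2 call was lost without any 1 of shRFP 1, shRFP 2, shLACZ 2, shLUC 1, shLUC 2 or NFIB 2 (limma adjusted p up to 0.488 over its alternatives). The difference between hairpins passed for IFIT1 (log2 3.81, SE 0.53, limma adjusted p 0.00093) and IFIT3 (log2 2.54, SE 0.40, limma adjusted p 0.00344), and not for IFIT2 (log2 1.80, limma adjusted p 0.0746).

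Other members passed in the difference between hairpins alone. IFI27 was at 1379 in NFIB 2 and 405 in NFIB 1, against 389.8 to 817 (median 601) in the controls (log2 difference 1.76, limma adjusted p 0.0179). NFIB 2 was above every control and NFIB 1 within them. BST2, the virion tether, PARP9, an ADP-ribosyltransferase, IFITM1, a block to virus entry, and OAS3 had log2 differences of 1.38, 1.38, 2.55 and 1.40. The BST2 call was lost without shRFP 1, shRFP 2 or shLACZ 2, the OAS3 call without shRFP 2 or shLUC 1, and the IFITM1 call without shRFP 2 or shLACZ 2 (highest limma adjusted p over alternatives 0.50, 0.446 and 0.528 for BST2, OAS3 and IFITM1). In NFIB 2 alone the calls of UBE2L6, EIF2AK2 and OAS1 were lost without shRFP 1, shRFP 2 or shLACZ 2. That of IFI44L was lost without shRFP 2 or shLACZ 2, and that of OAS2 without shRFP 1. With DESeq2 the calls of IFI6, OAS2 and IFI44L in NFIB 2 were lost. With quantile normalization those of OAS1, IFI44L, UBE2L6 and EIF2AK2 were lost. A pseudocount of 0.5 or no filter also took away those of IFI44L, UBE2L6 and EIF2AK2.

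**Figure D4:**
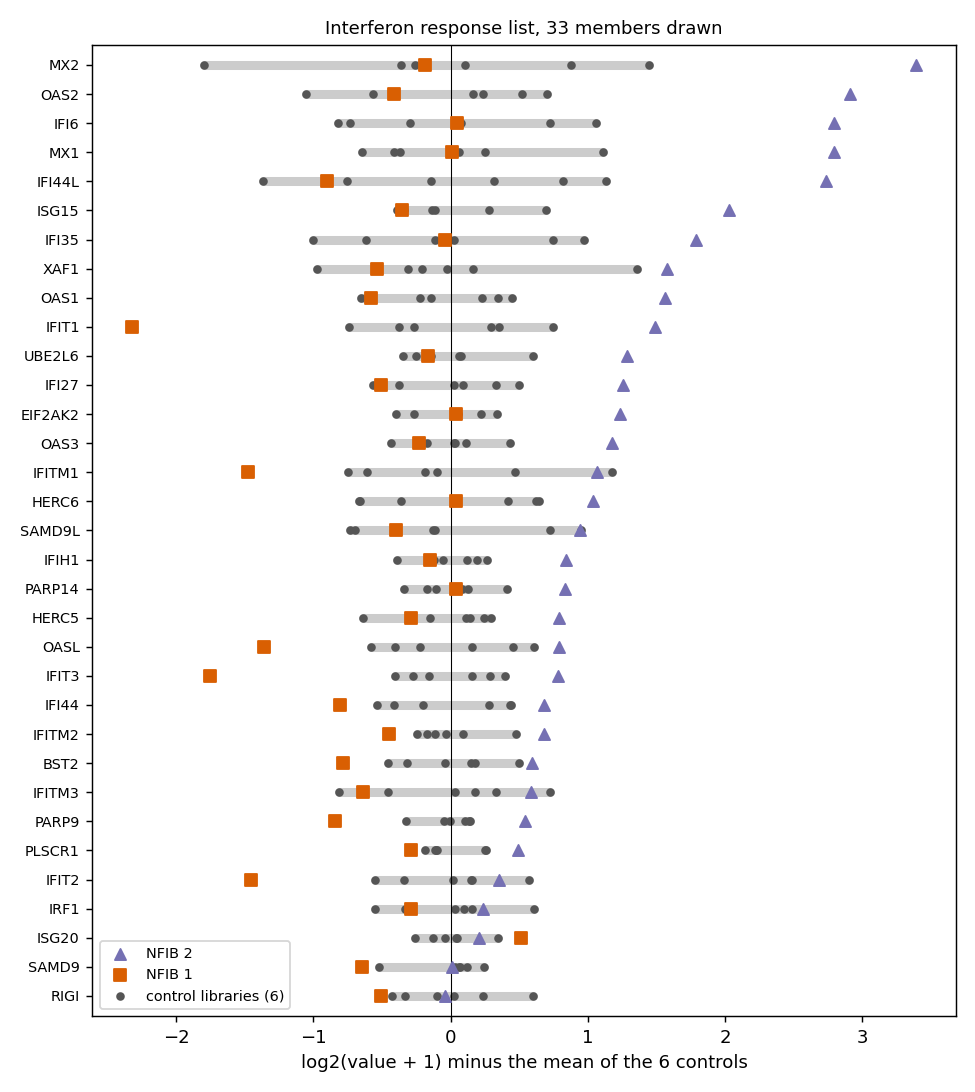
Each line is 1 of 33 of the tested members of the interferon response list, ordered by NFIB 2, with log2(value + 1) minus the mean of the 6 controls on the horizontal axis: triangles NFIB 2, squares NFIB 1, dots the controls with their range in grey. NFIB 2 lies right of all controls for 25 of those drawn, and NFIB 1 lies left of all controls for 12, with IFIT1, IFIT3, IFITM1 and IFIT2 the farthest left.

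Genes of MHC class I presentation, which loads peptides for display to T cells and is itself inducible by interferon, gave 0 calls in either hairpin. The list median was 0.71 in NFIB 2 and -0.19 in NFIB 1, with single controls at -0.20 to 0.14, and 14 of 18 members were above all controls in NFIB 2, where 16.3% of all genes were. In the difference between hairpins 2 of the 18 were higher in NFIB 2, where 0.651% of all genes were. PSMB8 was at 207 in NFIB 2 and 76.5 in NFIB 1, against 105 to 161 (median 116) in the controls (log2 difference 1.42, limma adjusted p 0.0366). PSMB9 was at 181 and 71.8, against 91.0 to 136 (median 104) (log2 difference 1.32, limma adjusted p 0.0465). Both encode catalytic subunits of the immunoproteasome, and both calls were lost without shRFP 2, that of PSMB9 also without shRFP 1 (limma adjusted p up to 0.416 for both over alternatives). For both, NFIB 2 was above and NFIB 1 under every control. STING1, the adaptor of cytosolic DNA sensing and a member of no list, was at 116 and 24.6, against 51.5 to 85.7 (median 55.7) (log2 difference 2.20, SE 0.37, limma adjusted p 0.00486).

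PI3 and CDH1 were among the 15 genes that fell with hairpin 2. PI3, the elastase inhibitor elafin, was at 58.6 in NFIB 2 and 588 in NFIB 1, against 169 to 503 (median 374) in the controls (log2 -2.56 in NFIB 2, SE 0.33, limma adjusted p 0.000421). CDH1, E-cadherin, the adhesion molecule of epithelial junctions, was at 256 and 739, against 421 to 759 (median 639) (log2 -1.23 in NFIB 2, SE 0.24, limma adjusted p 0.0237). In both genes NFIB 2 was under every control, while PI3 in NFIB 1 was above every control and CDH1 in NFIB 1 within their range. Elsewhere in the junction and desmosome list, 29 tested members, CGN passed in NFIB 1 alone. The CDH1 call in NFIB 2 was lost without shRFP 1 or shRFP 2 (limma adjusted p up to 0.798 over alternatives).

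CXCL8 and CXCL1, neutrophil-attracting chemokines of the NF-kB list, also fell with hairpin 2. CXCL8 was at 3.37 in NFIB 2 (8 reads) and 46.5 in NFIB 1, against 10.7 to 37.4 (median 26.1) in the controls (log2 -2.46 in NFIB 2, SE 0.46, limma adjusted p 0.021). CXCL1 was at 17.3 and 152, against 45.0 to 164 (median 82.2) (log2 -2.18 in NFIB 2, SE 0.42, limma adjusted p 0.0244). NFIB 2 was under all controls for both, and NFIB 1 was above all controls for CXCL8 and within them for CXCL1. They were the 2 of 25 list members that were lower in NFIB 2, where 0.144% of all genes were, and RELB, an NF-kB subunit, was the 1 that was higher in NFIB 1. The difference between hairpins passed for CXCL8 (log2 -3.44, limma adjusted p 0.00571) and CXCL1 (log2 -3.06, limma adjusted p 0.00672). Without shRFP 2 the calls of both in NFIB 2 were lost, and that of CXCL1 also without shRFP 1 (limma adjusted p up to 0.703 for CXCL8 and 0.798 for CXCL1 over alternatives).

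ANXA3, a calcium-dependent membrane-binding annexin, was at 16.0 in NFIB 2 and 73.8 in NFIB 1, against 48.5 to 77.3 (median 64.3) in the controls (log2 -1.92 in NFIB 2, limma adjusted p 0.00169). EMP1, an epithelial membrane protein, was at 186 and 491, against 366 to 542 (median 490.5) (log2 -1.30 in NFIB 2, limma adjusted p 0.00814). Both were under every control in NFIB 2 and within them in NFIB 1, and both differed between hairpins (log2 difference -2.13 and -1.39, limma adjusted p 0.00571 and 0.0205). BAG2 fell in NFIB 2 (log2 -1.89, limma adjusted p 0.00376) without a difference between hairpins that passed (log2 -1.06, limma adjusted p 0.325). CASP14 fell in NFIB 2 as well (log2 -1.50, limma adjusted p 0.021), a call that was lost without shRFP 1 (limma adjusted p up to 0.90 over alternatives). ROBO1, a receptor for Slit guidance proteins, had 1 read in NFIB 2 (a value of 0.422) and was at 6.15 in NFIB 1, against 5.63 to 13.2 (median 10.3) in the controls, and no fold is given for it.

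Basal and stress keratins differed between the NFIB libraries. Keratins of basal and activated keratinocytes build the intermediate filaments of these cells, and KRT5 with KRT14 marks the basal layer. Of 19 tested members of the basal epithelium list 5 were lower in NFIB 2 than in NFIB 1, where 0.268% of all genes were: KRT17, KRT6A, KRT6B, KRT14 and SFN. The list median was -0.52 in NFIB 2 and 0.17 in NFIB 1, with single controls at -0.27 to 0.26. KRT6A was at 204 in NFIB 2 and 1557 in NFIB 1, against 329 to 1103 (median 681) in the controls (log2 difference -2.93, SE 0.48, limma adjusted p 0.00469). KRT17 was at 403 and 1800.0, against 579 to 1329 (median 885) (log2 difference -2.16, SE 0.35, limma adjusted p 0.0039). NFIB 2 was under and NFIB 1 above every control for both genes, though neither hairpin alone passed for them against the controls.

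KRT6B was at 291 in NFIB 2 and 1919.5 in NFIB 1, against 309 to 1039.7 (median 736) in the controls, and it rose in NFIB 1 (log2 1.53, limma adjusted p 0.0333). That call was lost with DESeq2 and without shRFP 1 or shLACZ 2 (adjusted p up to 0.464 over its alternatives). KRT16, from the squamous differentiation list, was at 332 and 1319.6, against 378 to 744 (median 630.1), and also rose in NFIB 1 (log2 1.20, limma adjusted p 0.0216). The keratins KRT6A and KRT6B, and KRT14, KRT16 and KRT17, are alike in sequence, so reads may be shared among them. KRT14 was at 17.7 and 103, against 19.3 to 66.7 (median 45.2) (log2 difference -2.47, limma adjusted p 0.0452), a call that was lost without shRFP 1 or shRFP 2. SFN, the epithelial adaptor stratifin, was at 526 and 1151, against 729 to 928 (median 799) (log2 difference -1.13, limma adjusted p 0.026), and its call was lost without shRFP 2. KRT5 did not pass, at 2236 and 3489.9 against 2527 to 3706 (median 3289) (log2 difference -0.64, limma adjusted p 0.431). SERPINB2, an inhibitor of plasminogen activators, was at 69.2 and 382, against 121 to 275 (median 193) (log2 difference -2.45, SE 0.41, limma adjusted p 0.00486).

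DMBT1, a scavenger receptor of mucosal secretions, ran the other way. It was at 607 in NFIB 2 and 58.8 in NFIB 1, against 104 to 425 (median 249) in the controls (log2 difference 3.35, SE 0.54, limma adjusted p 0.0039). NFIB 2 was above and NFIB 1 under all 6 controls. SLC39A2, a zinc importer, was at 57.0 in NFIB 2 and at 2.05, or 3 reads, in NFIB 1, against 7.48 to 19.7 (median 16.3) in the controls, with a limma adjusted p of 0.00131 for the difference. No fold is read from 3 reads.

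With hairpin 1, 6 genes of the unfolded protein and integrated stress response list rose. In the integrated stress response kinases phosphorylate the initiation factor eIF2, and the factor ATF4 then induces genes of amino acid uptake and synthesis. Of 35 tested members of the list 6 were higher and 0 lower in NFIB 1, where 0.259% of all genes were higher, and 0 passed in NFIB 2. The list median was 0.07 in NFIB 2 and 0.28 in NFIB 1, with single controls at -0.04 to 0.20. In the difference between hairpins 0 members passed.

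The element that ATF4 binds with C/EBP factors is shown for ASNS and CHAC1, as the letters TGATGNAA on either strand within 250 bases before the RefSeq gene start (GRCh38.p14, gene strand, 5′ to 3′). Capitals mark the match. ASNS is chr7:97872443-97872502 (-) and CHAC1 is chr15:40953236-40953295 (+).
ASNS: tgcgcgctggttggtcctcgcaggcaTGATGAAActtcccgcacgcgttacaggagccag
CHAC1: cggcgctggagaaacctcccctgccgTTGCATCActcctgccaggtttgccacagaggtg
A match was found in 117 of 8633 promoters (1.36%) and in 3 of 32 of the list with a promoter sequence (9.38%). Of the genes that were higher in NFIB 1, 5 of 18 with a promoter sequence held one: ASNS, CHAC1, HERPUD1, KLHDC7B and S100P. It was in 0 of 68 promoters of genes that were lower in NFIB 1. As above, a match is a description and not a shown site.

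CHAC1, which breaks down glutathione, was at 33.3 in NFIB 2 and 161 in NFIB 1, against 13.2 to 56.3 (median 30.2) in the controls (log2 2.43 in NFIB 1, SE 0.45, limma adjusted p 0.00921). ASNS, asparagine synthetase, was at 158 and 291, against 54.2 to 172 (median 106) (log2 1.57 in NFIB 1, SE 0.36, limma adjusted p 0.0333). PPP1R15A, a phosphatase subunit that reverses eIF2 phosphorylation, was at 22.8 and 76.5, against 17.1 to 30.6 (median 21.6) (log2 1.73 in NFIB 1, SE 0.35, limma adjusted p 0.0126). NFIB 1 was above and NFIB 2 within the control range for all 3. HERPUD1, of protein degradation at the endoplasmic reticulum (log2 1.33), DDIT4, an inhibitor of mTORC1 (log2 1.61), and SLC3A2, the partner chain of amino acid exchangers (log2 0.97), also rose in NFIB 1. Their limma adjusted p were 0.033, 0.0431 and 0.0378. Without shRFP 2 the calls of ASNS, HERPUD1, DDIT4 and SLC3A2 were lost, as were those of ASNS, HERPUD1 and SLC3A2 without shRFP 1, those of ASNS, DDIT4 and SLC3A2 without shLACZ 2 and that of DDIT4 without shLUC 1 (limma adjusted p over alternatives up to 0.645 for ASNS, 0.508 for HERPUD1, 0.724 for DDIT4 and 0.33 for SLC3A2). The factor itself, ATF4, was at 144 and 357, against 127 to 265 (median 195), and did not pass in NFIB 1 (log2 0.95, limma adjusted p 0.112).

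SLC7A5, the large neutral amino acid transporter that pairs with SLC3A2, was at 304 in NFIB 2 and 748 in NFIB 1, against 127 to 349 (median 227) in the controls (log2 1.75 in NFIB 1, limma adjusted p 0.00791). SLC1A5 (log2 1.13, limma adjusted p 0.00538), S100P (log2 1.29, limma adjusted p 0.0117) and GPT2 (log2 1.53, limma adjusted p 0.0118) rose in NFIB 1 and were above all controls in NFIB 2 too. KLHDC7B, a kelch-domain protein, had the smallest p among higher genes in NFIB 1, at 137 in NFIB 2 and 448 in NFIB 1, against 88.9 to 208 (median 131) (log2 1.79, limma adjusted p 0.00417). Its difference between hairpins passed as well (log2 -1.70, limma adjusted p 0.0322). AMOTL2, a YAP-binding angiomotin-like protein (log2 1.18), KLHL21, a CUL3 ligase adaptor (log2 1.83), and SEZ6L2 (log2 1.27) completed the 10 higher genes of smallest p. AMOTL2 was the 1 of 20 YAP/TEAD target list members that passed.

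Several genes of cholesterol synthesis fell with hairpin 1. The pathway builds sterols from acetyl-CoA and is switched on by the SREBP2 factor when sterols are short. Of 23 tested members 5 were lower and 0 higher in NFIB 1, where 0.833% of all genes were lower, and 0 passed in NFIB 2 or in the difference between hairpins. The list median was -0.23 in NFIB 2 and -0.82 in NFIB 1, against single controls of -0.09 to 0.25. For both hairpins together it was -0.54 against the controls, 0.45 against RBPJ hairpins and -0.45 against FOXA1 hairpins. The fold change was positive for 22 of 23 members against RBPJ hairpins and negative for 19 against FOXA1 hairpins. Below all controls were 9 members in NFIB 2 and 18 in NFIB 1, where 14.3% and 18.04% of all genes were.

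HMGCS1, the synthase ahead of the rate-limiting step, was at 48.1 in NFIB 2 and 23.9 in NFIB 1, against 46.5 to 91.8 (median 60.5) in the controls (log2 -1.43 in NFIB 1, SE 0.32, limma adjusted p 0.0251, lost without shRFP 1 with a highest adjusted p over alternatives of 0.275). IDI1, the isopentenyl diphosphate isomerase, was at 352 and 202, against 390.0 to 434 (median 421) (log2 -1.03 in NFIB 1, SE 0.19, limma adjusted p 0.00888). ACAT2, which makes acetoacetyl-CoA, was at 120.2 and 70.4, against 141 to 198 (median 167) (log2 -1.23 in NFIB 1, SE 0.22, limma adjusted p 0.00843). NFIB 1 was under every control for the 3 genes, and NFIB 2 was too for IDI1 and ACAT2. MSMO1, a sterol demethylase, at 828 and 479.7 against 788 to 1016 (median 973), fell in NFIB 1 (log2 -0.97, limma adjusted p 0.0126). SCD, the fatty acid desaturase, was the 1 of 19 fatty acid synthesis list members that passed in NFIB 1, at 116 and 73.8 against 140.3 to 206 (median 158) (log2 -1.16, limma adjusted p 0.0149).

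Of 33 mitosis genes 3 were lower and 0 higher in NFIB 1, where 0.833% of all genes were lower, and 0 passed in NFIB 2 or in the difference. The list median was 0.02 in NFIB 2 and -0.51 in NFIB 1, with single controls at -0.10 to 0.10. For both hairpins together it was -0.32 against the controls, 0.04 against RBPJ hairpins and -0.32 against FOXA1 hairpins. Under all controls were 6 members in NFIB 2 and 24 in NFIB 1, where 14.3% and 18.04% of all genes were. KIF20A, a kinesin of cell division, was at 101 in NFIB 2 and 43.1 in NFIB 1, against 74.6 to 129 (median 99.8) in the controls (log2 -1.18 in NFIB 1, limma adjusted p 0.0251). CENPA, the histone variant of centromeres, was at 41.8 and 19.8, against 41.9 to 58.9 (median 43.1) (log2 -1.19 in NFIB 1, limma adjusted p 0.0457). CENPE, a kinetochore motor, was at 23.6 and 15.03, against 32.4 to 69.5 (median 39.0) (log2 -1.44 in NFIB 1, limma adjusted p 0.0479). NFIB 1 was under all controls for each. Without shRFP 1 the calls of all 3 were lost, and without shRFP 2 or shLUC 1 those of CENPA and CENPE, as was that of CENPA without shLACZ 2 (limma adjusted p over alternatives up to 0.274 for KIF20A, 0.263 for CENPA and 0.294 for CENPE).

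**Figure D5:**
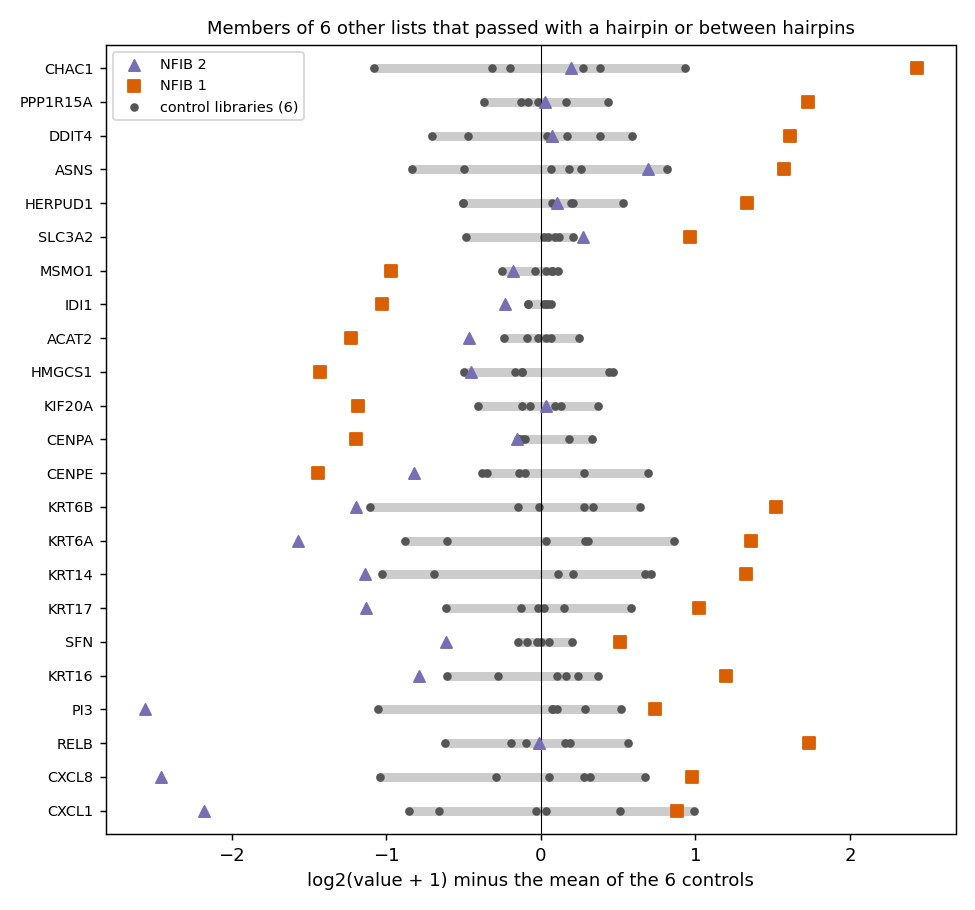
Each line is a member of 1 of 6 lists (stress response, cholesterol synthesis, mitosis, basal epithelium, squamous differentiation, NF-kB) that passed with a hairpin or between hairpins, with log2(value + 1) minus the mean of the 6 controls on the horizontal axis: triangles NFIB 2, squares NFIB 1, dots the controls with their range in grey. For the keratins NFIB 2 lies left and NFIB 1 right of the controls, and for the cholesterol synthesis genes NFIB 1 lies left of them.

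The 10 genes of smallest p among the 87 that fell in NFIB 1, PABPC3 among them, belonged to none of the lists. PLCXD3, a phospholipase-like protein, was at 193 in NFIB 2 and 75.2 in NFIB 1, against 197 to 300.0 (median 241) in the controls (log2 -1.66 in NFIB 1, limma adjusted p 0.00216). CXCL17, a mucosal chemokine, was at 761 and 251, against 539 to 886 (median 666) (log2 -1.41 in NFIB 1, limma adjusted p 0.00417). TNFSF10, the death ligand TRAIL, was at 109 and 27.3, against 68.7 to 101 (median 92.6) (log2 -1.64 in NFIB 1, limma adjusted p 0.00417). In each, NFIB 1 was under all controls, and each differed between hairpins (log2 difference 1.35, 1.59 and 1.96, limma adjusted p 0.0277, 0.00644 and 0.00571). ERP27, of the endoplasmic reticulum, STEAP4, a metalloreductase, MELTF, the iron-binding melanotransferrin, and ATP1B1, a sodium pump subunit, fell by 1.62, 1.35, 1.61 and 1.32 on the log2 scale. PPIB, a prolyl isomerase of the secretory pathway, and STC1, the hormone stanniocalcin, fell by 1.22 and 2.20. All 6 had a limma adjusted p of 0.00536 or less in NFIB 1.

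Other lists held 1 or 2 passing members. Among luminal progenitor genes CD14, a lipopolysaccharide co-receptor (log2 -1.37, limma adjusted p 0.023), and RARRES1, a retinoid-responsive gene (log2 -1.07, limma adjusted p 0.0251), fell in NFIB 1, 2 of 15 members, where 0.833% of all genes were lower. TSPAN1, a tetraspanin of luminal cells and 1 of 19 mature luminal members, was at 256 in NFIB 2 and 93.6 in NFIB 1, against 135 to 249.9 (median 208) in the controls. It fell in NFIB 1 (log2 -1.07, limma adjusted p 0.037) and differed between hairpins (log2 difference 1.44, limma adjusted p 0.0322). ITGB1, the shared beta chain of matrix-binding integrins, was at 35.4 and 25.3, against 51.4 to 115 (median 69.9), and fell in NFIB 1 (log2 -1.44, limma adjusted p 0.0323). CGN, the tight junction protein cingulin (log2 -1.44), and TAGLN2, an actin-binding protein (log2 -0.79), fell in NFIB 1, at a limma adjusted p of 0.0216 and 0.0432. RELB was at 14.8 and 51.9, against 9.35 to 22.5 (median 15.3) (log2 1.73 in NFIB 1, limma adjusted p 0.0431). NDRG1, a hypoxia-responsive gene (log2 difference -1.35), S100A4, a calcium-binding protein of motile cells (log2 difference 1.88), and H2AJ, a histone variant (log2 difference 1.23), passed between hairpins alone.

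The calls of CD14, RARRES1, ITGB1, TSPAN1, TAGLN2 and RELB in NFIB 1 were lost without shRFP 1, and those of RARRES1, TSPAN1, TAGLN2 and RELB also without shRFP 2. TSPAN1 and RELB were also lost without shLUC 1, and RELB without shLACZ 2. Over their alternatives the limma adjusted p reached 0.318 for CD14, 0.513 for RARRES1, 0.313 for ITGB1, 0.33 for TSPAN1, 0.802 for TAGLN2 and 0.283 for RELB. Between hairpins, the calls of NDRG1, TSPAN1 and H2AJ were lost without shRFP 2, and that of H2AJ also without shRFP 1 or shLACZ 2, with a limma adjusted p of up to 0.851, 0.444 and 0.416.

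No member passed, with either hairpin, both or between them, in the Notch pathway (33 tested), spindle orientation and cell polarity (25), G1/S and DNA replication (35), TGF-beta pathway (29), p53 target (22), EGF ligand and MAPK response (27), epithelial transcription factor (27), oxidative phosphorylation (54) and cytosolic ribosomal protein (75) lists. In the Notch list, whose pathway steers cell fate through ligand-induced cleavage of a receptor, the median was -0.004 in NFIB 2 and 0.05 in NFIB 1, within single controls (-0.03 to 0.05). HES1, a Notch-induced repressor named after its values were seen, was under every control in both libraries without passing. Both libraries lay under every control for 4.57% of all genes. HES1 was at 229 in NFIB 2 and 249 in NFIB 1, against 256 to 307 (median 287) in the controls (log2 -0.25 for both, limma adjusted p 0.694). By p in the pair, APH1A, a gamma-secretase subunit (log2 0.56), DTX2 (log2 0.82), the ligand JAG2 (log2 -0.60) and the receptor NOTCH3 (log2 -0.36) led that list. In the spindle and polarity list the median was 0.07 in NFIB 2 and -0.03 in NFIB 1, within single controls (-0.12 to 0.08). It was led by the polarity GTPase CDC42 (log2 -0.78, limma adjusted p 0.321), the spindle anchor NUMA1 (log2 0.65, limma adjusted p 0.502), SCRIB (log2 -0.44) and NUMB (log2 -0.33).

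Among lists with no call, or 1 call, those with a median outside the single controls in both NFIB libraries included G1/S and DNA replication genes, at 0.12 in NFIB 2 and 0.15 in NFIB 1 (controls -0.08 to 0.10), and actin cytoskeleton genes, at -0.16 and -0.16 (controls -0.14 to 0.10). The epithelial transcription factor list was at 0.18 in NFIB 2 and -0.08 in NFIB 1 (controls -0.04 to 0.06). The heat shock list was at -0.21 in NFIB 2 and 0.21 in NFIB 1 (controls -0.10 to 0.17). The EGF ligand and MAPK response list had a median of -0.19 in NFIB 2 and 0.42 in NFIB 1, on either side of the controls (-0.17 to 0.23). Among genes reported elsewhere as responsive to nuclear factor I proteins, 9 were tested. KRT14 alone passed among them, between hairpins, and the list median was -0.19 in NFIB 2 and 0.17 in NFIB 1, within the controls (-0.20 to 0.25). The palindrome of the family, TTGGC and GCCAA with any 5 bases between them, was in 4 of 8633 promoters (0.0463%) and in 0 of those of genes that passed with a hairpin or between hairpins. The shorter TTGGCA was in 644 (7.46%), in 1 of 18 and 5 of 68 promoters of genes higher and lower in NFIB 1 and in 2 of 8 and 2 of 12 of those higher and lower in NFIB 2. For higher and lower genes these shares were 5.56% and 7.35% in NFIB 1, and 25% and 16.7% in NFIB 2. Between hairpins they were 7.14% of genes higher in NFIB 2 and 5% of those lower. CASP14 is among the holders of TTGGCA. Binding was not measured, and no match says only that these letters are not in the window.

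The NFIB libraries were also set against hairpins for FOXA1 and RBPJ, 2 libraries each, in a fit over 12 libraries and 10657 genes with no control library in the contrast. Against FOXA1 hairpins 9 genes passed (0.0845%), 3 higher (0.0282%) and 6 lower (0.0563%) with NFIB hairpins. S100P was at 588 and 826 in NFIB 2 and NFIB 1, against 165 and 198 in FOXA1 1 and FOXA1 2 (log2 difference 1.94, SE 0.32, limma adjusted p 0.0127). AGR2, a secretory protein disulfide isomerase of luminal cells, was at 243 and 85.4, against 25.7 and 27.0 (log2 difference 2.41, limma adjusted p 0.0127). PABPC1 was at 326 and 274, against 822 and 748 (log2 difference -1.39, SE 0.22, limma adjusted p 0.0127). The libraries did not overlap for any of these genes. GPX4 was also higher (log2 difference 1.48, limma adjusted p 0.0243), while PABPC3, S100A7, S100A8, BAG2 and TOP1 were lower (log2 differences -1.63, -3.50, -2.56, -1.73 and -1.66). S100A8, a neutrophil and keratinocyte calcium-binding protein, was at 131 and 59.5, against 565 and 487, and its controls were at 104 to 275 (median 122). AGR2 was at 85.9 to 225 (median 112) in the controls, above which NFIB 2 lay and under which NFIB 1 and both FOXA1 libraries lay. For S100A8 both FOXA1 libraries lay above all controls, NFIB 2 within them and NFIB 1 under them. The FOXA1 transcript was at 24.4 and 58.6 in FOXA1 1 and FOXA1 2, against 67.6 to 160.1 (median 95.8) in the controls. Without FOXA1 1, 15 genes passed, all of them higher, and 0 of the 9 were among them. The count of 9 became 1 without FOXA1 2, 5 without shLACZ 2, 26 without RBPJ 1 and 24 without RBPJ 2.

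Against RBPJ hairpins 0 of 10657 genes passed with limma, and 0 with edgeR or DESeq2, while 240 genes had an unadjusted limma p under 0.05. The RBPJ transcript was at 43.3 in the library labelled RBPJ 1 and 8.53 in RBPJ 2, against 43.1 to 54.9 (median 47.7) in the controls, so that RBPJ 1 was within their range. Without RBPJ 1, 110 genes passed, and 5 without NFIB 1. PABPC1 was at 326 and 274 in NFIB 2 and NFIB 1, against 356 and 367 in the libraries labelled RBPJ 1 and RBPJ 2, where all 4 values were under every control. CASP14 was at 51.9 and 53.3, against 116 and 30.3, so that RBPJ 2 was under and RBPJ 1 within the control range. HSPA1B was at 119 and 93.6, against 78.6 and 119, all above every control. SLC1A5 was at 494 and 642, against 448 and 293, with RBPJ 2 within the control range. The 95% interval of the log2 difference from RBPJ hairpins, not adjusted over genes, was -0.73 to 0.18 for PABPC1, -1.01 to 0.66 for CASP14, -0.46 to 0.70 for HSPA1B and 0.15 to 1.12 for SLC1A5. By p, SERPINB4, which has a near-identical copy (log2 difference 1.98), S100P (log2 difference 1.40) and S100A7 led the higher genes, and no fold is given for S100A7, which had few reads with RBPJ hairpins. BAG2 (log2 difference -1.06), COPB2 (log2 difference -0.73) and TOP1 (log2 difference -1.0) led the lower ones, and none of these 6 passed.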

How the data were processed

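Per the labels' protocols, infected HCC70 cells were grown in multiwell plates and 3′ cDNA was barcoded, pooled and amplified by in vitro transcription (CEL-Seq). Some samples were sequenced again for low yield, and which ones is not given, nor is the barcoding batch of each sample. The deposited table holds a normalized signal per gene, which its name gives as DESeq2-normalized, that is gene counts divided by a size factor per library. The build is GRCh37 per the submitters' processing notes, and the sources used here state no aligner, counter or annotation. Divided by the value of 1 read, all values came out whole to within 0.05 read, and read counts were recovered for the alternatives. A table had 2 columns that match no sample here, and they were not used. Of 11282 genes, 838 that did not reach 5 in 2 or more of the 8 libraries were left out.

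Fits used limma 3.58.1 (R 4.3.3) with a mean-variance trend on log2(value + 1) and Benjamini-Hochberg adjustment over all genes tested, with a threshold of 0.05. One fit had the NFIB libraries as a group, another each hairpin on its own, and another 12 libraries with RBPJ and FOXA1 hairpins. Alternatives were other pseudocounts, no filter, quantile normalization, no trend, edgeR 4.0.16 quasi-likelihood and DESeq2 1.42.0 on recovered reads, all 16 libraries, plko among the controls, a replicate block and each library left out. Scripts were tested on simulated data. Named genes are the targeted genes and family, the 5 (both hairpins; against other hairpins) or 10 (1 hairpin) of smallest p in each direction, the 5 in each direction between hairpins, and list members that passed, or that led the Notch and spindle lists; others are marked or passed. Members and all 33 gene lists were chosen with earlier results of these data known, so list counts are not independent evidence. Promoters were matched by symbol to RefSeq (GRCh38.p14). Precision follows depth: 1 read is a value of 0.422 in NFIB 2, 0.683 in NFIB 1 and 0.630 to 1.41 in the controls. Of the genes that passed, 2 list members are not reported here by name.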

Additional observations from a re-analysis of the deposited data

Results flagged for a closer look

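In NFIB 2 minus NFIB 1, 96 genes passed, in a test of 1 library against 1 that takes its spread from the 6 controls, so it compares these libraries and does not show that the hairpins differ in effect. The 5 of smallest p that were higher in NFIB 2 had log2 differences of 3.81 (IFIT1), 2.54 (IFIT3), 3.35 (DMBT1), 2.20 (STING1) and a fitted 4.25 (SLC39A2), the last of which rests on 3 reads in NFIB 1 and depends on the pseudocount. The 5 that were lower in NFIB 2 had log2 differences of -2.47 (NFIB, a description, since its deeper loss in NFIB 2 was known), -3.30 (PI3), -2.16 (KRT17), -2.93 (KRT6A) and -2.45 (SERPINB2). Between NFIB and FOXA1 hairpins 9 genes differed.

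A single control library stood far from the other 5 in 4 of 88 quantities, where chance gives about 1 in 20. PI3 was at 168.9 in shLUC 1 and STING1 at 85.7 in shLUC 1. The median of the YAP/TEAD target list was -0.40 in shLACZ 1, and that of the unfolded protein and integrated stress response list 0.20 in shRFP 1.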

How the results depend on the processing

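Counts of passing genes are given in the order both hairpins, NFIB 2, NFIB 1 and the difference between hairpins, which were 5, 24, 114 and 96. Without a mean-variance trend they were 0, 1, 0 and 0, and with all 16 libraries in the fit 1, 1, 4 and 1. With plko added to the controls the first 3 were 0, 1 and 0. The plko libraries held 375713 (plko 1) and 1256160 (plko 2) reads, and plko 1 was the shallowest of all 16. The cause of these shifts was not tested. With edgeR the counts were 6, 79 (47 higher and 32 lower), 193 (96 higher and 97 lower) and 172, and with DESeq2 31, 58, 152 and 139. A pseudocount of 5 gave 39 for NFIB 2. Leaving out a library gave 0 to 114 for both hairpins, 10 to 69 for NFIB 2, 58 to 166 for NFIB 1 and 52 to 135 for the difference. Against FOXA1 hairpins, 9 became 0 without a trend, 22 with DESeq2 and 1 to 26 with a library left out, and against RBPJ hairpins the leave-one-out range was 0 to 110.

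The log2 change of the NFIB transcript, -1.72, was -1.89 with plko added (exact permutation p 0.0444) and -2.96 to -0.49 with a library left out. Of the named genes that passed, NFIB in NFIB 2 passed under all alternatives, and 0 of 5 did for both hairpins, 0 of 45 in NFIB 1 and 0 of 35 in the difference. The loss of NFIB in NFIB 2 was known when the hairpins were separated, so its call is a description. Changes of sign came only in genes that did not pass: with both hairpins FOXA1 gave -0.012 with plko added and -0.21 to 0.36 with a library left out, NFIA -0.43 to 0.086 and RBPJ -0.19 to 0.048 with a library left out. With plko added, NFIA gave -0.035 in NFIB 2 and RBPJ -0.027 in NFIB 1. In NFIB 1 the calls of ASNS, CENPA, KRT6B and RELB were lost with DESeq2. Without a filter those of DDIT4, CENPA, CENPE, RELB, TAGLN2 and IFIT2 were lost. A pseudocount of 5 took away those of CENPA, CENPE and IFIT2, and a pseudocount of 0.5 those of CENPE and IFIT2. Of 2112 recomputed list medians 100 moved by more than the SD of the controls.

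Shared replicate numbers showed no sign of pairing the samples (correlations of deviations -0.17 to 0.089). Noise in genes with few reads lowers such correlations, so pairing is not excluded. With a replicate block 6 genes passed for both hairpins and 10 against FOXA1 hairpins. Depth limits genes with few reads, such as ROBO1 and SLC39A2, and intervals do not cover differences between cultures.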
